A study of Gasterosteus aculeatus with 12 samples.

Results

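The distal part of *Gasterosteus* chromosome XIX, from 12 Mb to its last counted site, was examined through the reads that whole embryos gave for each of 2 bases at single-nucleotide sites. A site belonged to the region when it lay on chromosome XIX at position 12000000 or beyond on the *gasAcu1-4* assembly, was listed for all 12 embryos and had more than 12 reads in every one of them. By this rule 3766 sites were members, of 116469 sites of the genome that met the same 2 criteria. The files listed 12728 sites of the region for 1 or more embryos and 8588 for all 12, so that 4140 sites were left out because they were missing from a file and a further 4822 because an embryo had 12 reads or fewer. Members lay between positions 12022095 and 20162838.

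The 12 samples form a single group in the labels, F1 embryos of LITC crossed with High-spine, with 1 RNA library from each whole embryo. LITC is an anadromous population, and the high-spine parent belonged to a stock that descended from a cross between a Boulton Lake and a Bodega Bay stickleback. The labels do not say which of them was the mother. All embryos were raised in 10% seawater at 16 °C and were collected 72 h after fertilization at stage 19/20, and the labels name no treatment, transgene or induced mutation. All of them come from this cross rather than from independent families, and neither a sex nor a clutch is given for any of them.

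Chromosome XIX is the sex chromosome of the threespine stickleback. Females carry a pair of X chromosomes and males an X and a Y, and the Y no longer exchanges segments with the X outside a pseudoautosomal end. A Y that does not recombine gathers differences from the X and loses genes, so that a male can be heterozygous at many sites in genes that still have a copy on both chromosomes and can carry a single allele where the Y copy is gone. Along an X or an autosome, siblings that inherit the same parental segment share its alleles until a crossover separates them. The labels name no sex, and the embryos are therefore described below only by what was counted in them.

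Embryos were divided by the number of their heterozygous sites on the whole of chromosome XIX, where a site was called heterozygous when the less common of its 2 bases had more than 10% of the reads. Embryos 2, 4, 5, 6, 7 and 11 had 7023 to 7124 heterozygous sites, with a median of 7069, and lie above the limit of 4500. Embryos 1, 3, 8, 9, 10 and 12 had 1877 to 1922, with a median of 1902. The first 6 are called heterozygote-rich and the other 6 heterozygote-poor. No embryo lay near the limit, and limits of 4000 and 5000 or a division by the sites below 12 Mb alone gave the same sets. Because the sets were cut from counts of this chromosome, differences between them are given as values of the embryos, without a test.

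The libraries held 16302333 to 27003127 counted reads, with a median of 23745251, and 652869 to 1266996 of an embryo's reads fell on members. In a single embryo a member had between 13 and 13182 reads (median 72). A read that spans several sites is counted at each, and 71.0% of neighbouring members lay within 150 bp of each other. Members no more than 1 kb apart were therefore also joined into clusters, of which there were 442. Depth is given as scaled reads, the reads at the sites per 1000000 reads of the same embryo at the 103773 sites of the 20 other chromosomes that passed the same limits. The share of reads set aside for low mapping quality at members did not overlap between the sets. It was 1.62% to 1.91% in heterozygote-rich and 1.20% to 1.44% in heterozygote-poor embryos. On the other chromosomes the ranges were 5.01% to 5.77% and 4.87% to 5.44%, and they overlapped.

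Over all members the heterozygote-rich embryos were heterozygous at more than 3 times as many sites as the heterozygote-poor ones. Heterozygote-rich embryos had 2140 to 2208 heterozygous members, a median of 57.2% of the sites. Heterozygote-poor embryos had 682 to 707, a median of 18.6%. Elsewhere the same embryos differed in another way. At 3 to 12 Mb of the chromosome the medians were 80.0% and 12.3%, in the first 3 Mb they were 56.7% and 53.1%, and on the other chromosomes 53.7% and 51.8%. Compared with 3 to 12 Mb, the distal region therefore held a smaller share of heterozygous sites in the heterozygote-rich embryos and a larger one in the heterozygote-poor embryos.

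The excess lay mostly at densely packed sites. When 1 site was kept per 1 kb, the one with the most reads, 790 sites remained and the difference between the medians turned from 38.6 percentage points to −3.80, so that the heterozygote-poor embryos were then slightly more heterozygous. Members heterozygous in no embryo had a median of 95 reads, and those heterozygous in every heterozygote-rich and no heterozygote-poor embryo 72. The part of this choice by reads in the reversal was not tested. Sites at which every heterozygote-rich and no heterozygote-poor embryo was heterozygous lay in only 112 of the 442 clusters, but these clusters held 2791 of the members, with a median of 16 sites and up to 119 in a cluster. The remaining clusters were mostly small.

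Heterozygous shares did not overlap between the sets in any of the 9 windows of 1 Mb, against 0.952% of 420 such windows on the other chromosomes. Heterozygote-rich embryos were higher in the 7 windows before 19 Mb and lower in the 2 beyond it. Their medians were 67.4% at 12 to 13 Mb, 59.9% at 13 to 14 Mb, 49.3% at 14 to 15 Mb, 57.1% at 15 to 16 Mb and 68.4% at 16 to 17 Mb. The medians of the heterozygote-poor embryos in these windows were 12.8%, 18.9%, 28.1%, 16.0% and 10.5%. The sets came closest at 17 to 18 Mb, with medians of 37.7% and 31.9%, and parted again at 18 to 19 Mb, with 64.1% and 16.7%. At 14 to 15 and 17 to 18 Mb, the windows in which heterozygote-rich embryos were least heterozygous before 19 Mb, heterozygote-poor embryos were most heterozygous.

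**Figure D1:**
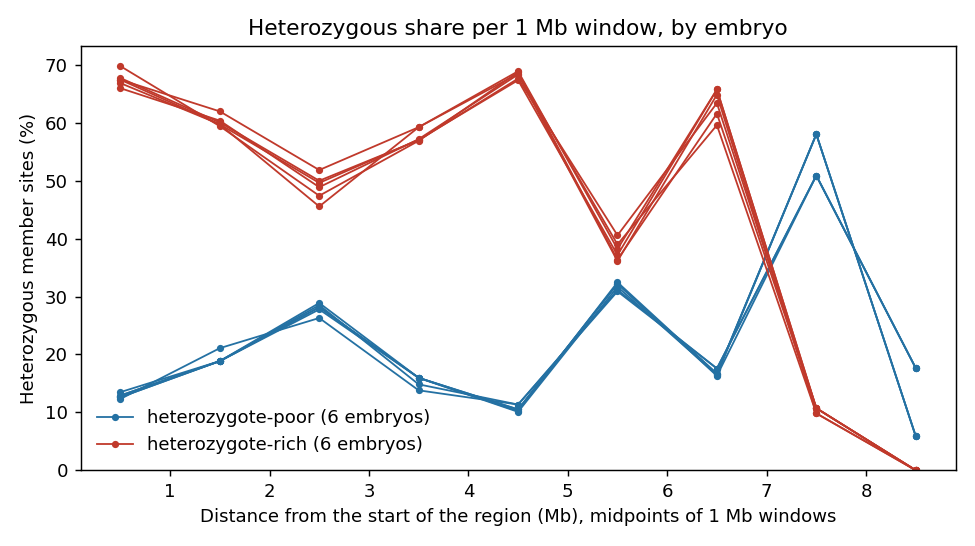
Share of member sites that were heterozygous (percent) in each 1 Mb window, plotted against the distance of the window's midpoint from the start of the region, with 1 line per embryo. Heterozygote-rich embryos lie above all heterozygote-poor ones in the first 7 windows, and below them in the last 2, where their medians are 10.7% and 0%.

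Past 19 Mb the order was the reverse. Of the 129 members there, heterozygote-rich embryos were heterozygous at 11 or 12 (8.53% to 9.30%) and heterozygote-poor embryos at 60 to 66 (46.5% to 51.2%). The difference between the medians was −39.5 percentage points past 19 Mb and 41.4 percentage points at 12 to 19 Mb. With 1 site per 1 kb the change from one to the other was smaller but had the same sign, at −53.9 in place of −81.0 percentage points. Embryos 3, 8 and 12 all had 60 heterozygous sites and embryos 1, 9 and 10 all had 66, a division of the heterozygote-poor embryos that recurs below.

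In windows of 250 kb the change lay before 19 Mb. Heterozygote-rich embryos were heterozygous at 65.5% to 73.7% of the 411 sites at 18250 to 18500 kb and at none of the 23 sites at 18500 to 18750 kb or of the 5 at 18750 to 19000 kb. Heterozygote-poor embryos rose over the first of these steps, from a median of 11.2% to 41.3%. The last cluster before this gap that held sites heterozygous in every heterozygote-rich and in no heterozygote-poor embryo ended at 18421348. One stretch beyond it went against the rest. At 19500 to 19750 kb heterozygote-rich embryos were heterozygous at 73.3% to 80.0% of 15 sites and heterozygote-poor embryos at 6.67% to 26.7%, and the 11 sites heterozygous in every heterozygote-rich and no heterozygote-poor embryo all lay in 2 clusters between 19613568 and 19615410. Past 20 Mb, heterozygote-rich embryos were heterozygous at none of 17 sites.

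Depth was lower in the heterozygote-rich embryos. They had 48486 to 51110 scaled reads over the members, with a median of 50030, and heterozygote-poor embryos had 59940 to 66848, with a median of 61301. The ranges did not overlap, and the ratio of the medians was 0.816 (−0.29 on the log2 scale). Reads per site gave a lower ratio, with a median over the members of 0.701 (log2 −0.51). In the sum the deepest sites weigh most, and without the sites within 5 kb of the deepest member its log2 ratio was −0.35. At 3 to 12 Mb of the chromosome the ratio of the medians was 0.860, also without overlap. The ranges there were 27883 to 31323 and 31942 to 35898 scaled reads. In the first 3 Mb the ratio was 0.899, and the ranges overlapped. From whole embryos, fewer cells of a type and less RNA per cell cannot be told apart. The deepest member, G16712789A (reference base, position, alternate base), had 518 to 770 scaled reads in heterozygote-poor embryos, and the range of the heterozygote-rich embryos, 551 to 619, lay within it.

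All heterozygote-poor embryos were above all heterozygote-rich ones in depth at 1114 members (29.6%), against 0.118% of the sites of the other chromosomes. The opposite held at 49 members (1.30%), against 0.422%. By window, heterozygote-poor embryos were higher without overlap in 7 of 9 windows, against 0.238% of windows on the other chromosomes, and no window had the heterozygote-rich embryos higher without overlap, against 1.43%. The log2 ratio of the medians was −0.47, −0.40, −0.50 and −0.51 in the first 4 windows. It was −0.09 at 16 to 17 Mb, where the sets overlapped and the deepest member lies, −0.29 at 17 to 18 Mb and −0.45 at 18 to 19 Mb. The lowest value was −0.91, a ratio of 0.532, at 19 to 20 Mb, where heterozygote-rich embryos had 276 to 308 scaled reads and heterozygote-poor embryos 510 to 582. Windows of the other chromosomes had a median of 0.01, and ranged from −0.26 to 0.55.

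**Figure D2:**
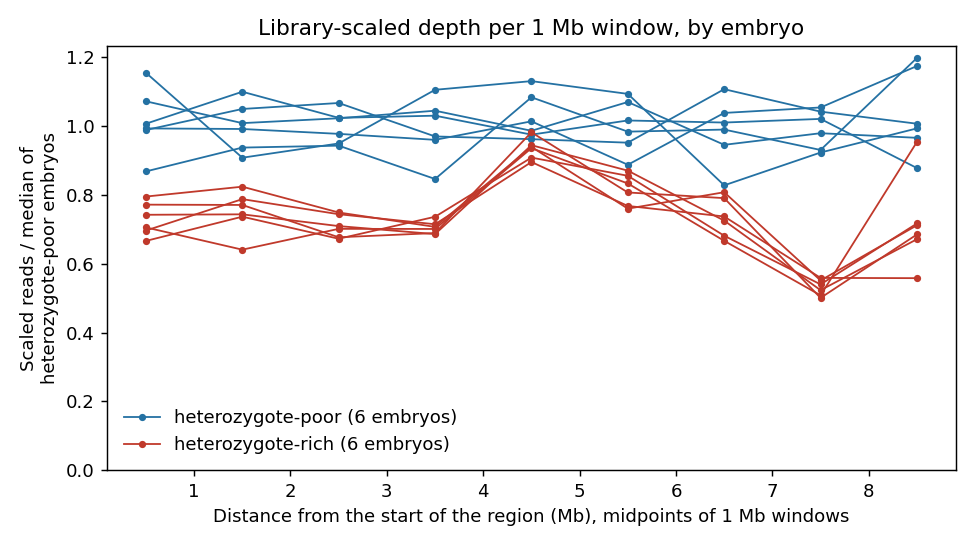
Scaled reads of each embryo in each 1 Mb window, divided by the median of the heterozygote-poor embryos in that window (1 on the vertical axis, which starts at 0), against distance from the start of the region. Heterozygote-rich embryos reach the range of the others in the window from 4 to 5 Mb, at a ratio of 0.938, and in the last window, at 0.698. They are lowest from 7 to 8 Mb, at 0.532.

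Past 19 Mb as a whole, heterozygote-rich embryos had 689 to 931 scaled reads and heterozygote-poor embryos 1162 to 1382, a ratio of 0.623 (log2 −0.68). Sites of the last window carried most of these reads and overlapped between the sets, at 380 to 650 and 598 to 817 scaled reads. The read limit touched this value, since it removes sites that are low in any embryo. Without it, the log2 ratio past 19 Mb was −0.81 over sites listed in all 12 files. Low mapping quality moved with the sets over the whole region, as given above, and in 4 of the windows its share was higher in all heterozygote-rich embryos. Such windows were not counted on the other chromosomes. With reads of low mapping quality and of low base quality included, the log2 depth ratio over all members was −0.29, as without them. At 19 to 20 Mb the ranges of the low mapping quality share overlapped, at 0.178% to 0.597% and 0.280% to 0.377%.

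Sites were then sorted by which embryos were heterozygous. The largest class, 1874 members (49.8%), was heterozygous in every heterozygote-rich and no heterozygote-poor embryo. The reverse, heterozygous in every heterozygote-poor and no heterozygote-rich embryo, was found at 398 members (10.6%), and no embryo was heterozygous at 595. A further 429 sites were heterozygous in some heterozygote-poor and no heterozygote-rich embryos, 352 in some heterozygote-rich and no heterozygote-poor embryos, 35 in all 12 embryos and 83 in other combinations. The calls that sorted the sites also cut the sets, and the shares of these classes on the other chromosomes were not computed. Past 19 Mb the first class had only 11 members and the second had 42. Transitions made up 63.0% of the first class and 57.8% of the second, beside 58.8% of the sites on the other chromosomes.

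These classes differed in depth. Total depth had no part in forming them except through the read limit, but the share of the second base did. The choice of sites therefore fixed that share, and its part in the difference in total depth between classes was not tested. Per site, the median ratio of heterozygote-rich to heterozygote-poor depth was 0.868 in the first class, with quartiles of 0.718 and 1.04. It was 0.563 in the second class, with quartiles of 0.477 and 0.644. Sites without any heterozygous embryo had 0.571, those heterozygous in some heterozygote-poor embryos 0.545 and those heterozygous in some heterozygote-rich embryos 0.592. The 35 sites heterozygous in all 12 embryos had 0.664 and the 83 of other combinations 0.697, so that of the 7 classes the first had the ratio nearest to 1. All heterozygote-poor embryos were above all heterozygote-rich ones at 8.0% of the first class and 55.3% of the second.

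**Figure D3:**
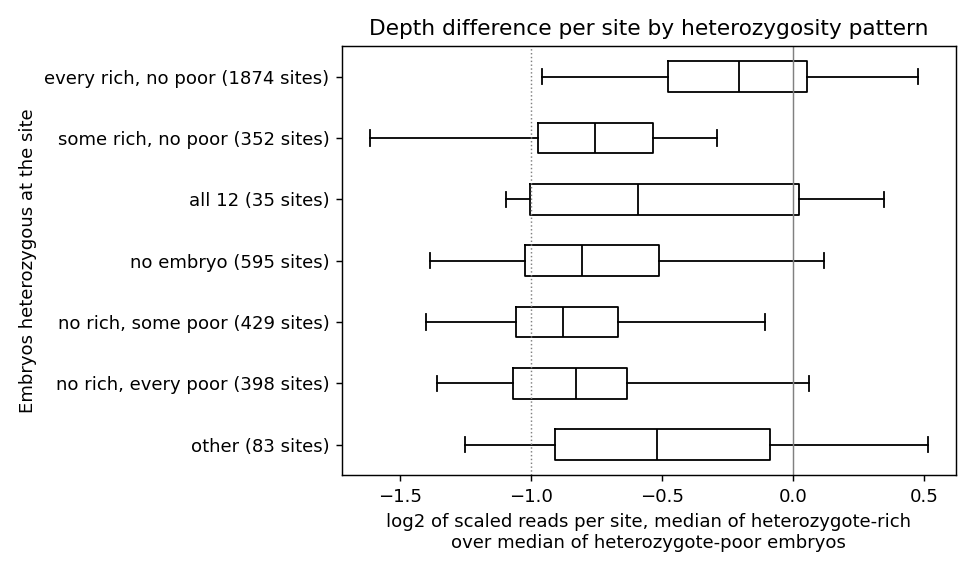
Log2 ratio of scaled reads per site, median of the heterozygote-rich over median of the heterozygote-poor embryos, for the 3766 members grouped by which embryos were heterozygous. Boxes give the median and quartiles, whiskers the 5th and 95th percentiles, and dotted and solid lines mark −1 and 0. The class heterozygous in every heterozygote-rich and no heterozygote-poor embryo lies nearest to 0, with a median of −0.20, and the reverse class has −0.83.

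Clusters, which were divided by the same calls, differed as well. In the 308 clusters without a single site heterozygous in any heterozygote-rich embryo, which held 820 members, the median depth ratio was 0.549 with quartiles of 0.490 and 0.618, and 280 of them (90.9%) were below 0.7. In the 112 clusters with sites of the first class it was 0.878, with quartiles of 0.705 and 1.01, and 28 were below 0.7. The other 22 clusters had a median of 0.529. Within the 112 clusters, however, the ratio varied with the class of the site. Their 359 sites without any heterozygous embryo had a median of 0.587, near the 0.553 of that class in the 308 clusters. Their 92 sites of the second class had 0.666, higher than the 0.554 of that class in the 308 clusters. Clusters of both kinds lay side by side up to 18421348, while past 18500 kb there were 66 clusters without a heterozygous site in the heterozygote-rich embryos, all below 0.7 with a median of 0.541, and 2 clusters with sites of the first class. Most reads came from the latter kind. Clusters with sites of the first class held 43747 to 46134 scaled reads in heterozygote-rich and 50746 to 58477 in heterozygote-poor embryos, and the 308 clusters without held 3873 to 4252 and 6723 to 7541.

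Ratios also varied among the clusters with sites of the first class. The cluster of 119 sites at 18252276 to 18260049 had a ratio of 0.738 and that of 74 sites at 12554100 to 12558532 had 0.930. At 15487854 to 15492577, a cluster of 88 sites, 58 of them of the first class, had 0.684, while the last cluster before the gap, 17 sites at 18419291 to 18421348, had 1.41. The ratio was therefore not constant among them. Genes are not named, because the coordinates of the files belong to an assembly for which no annotation was used.

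**Figure D4:**
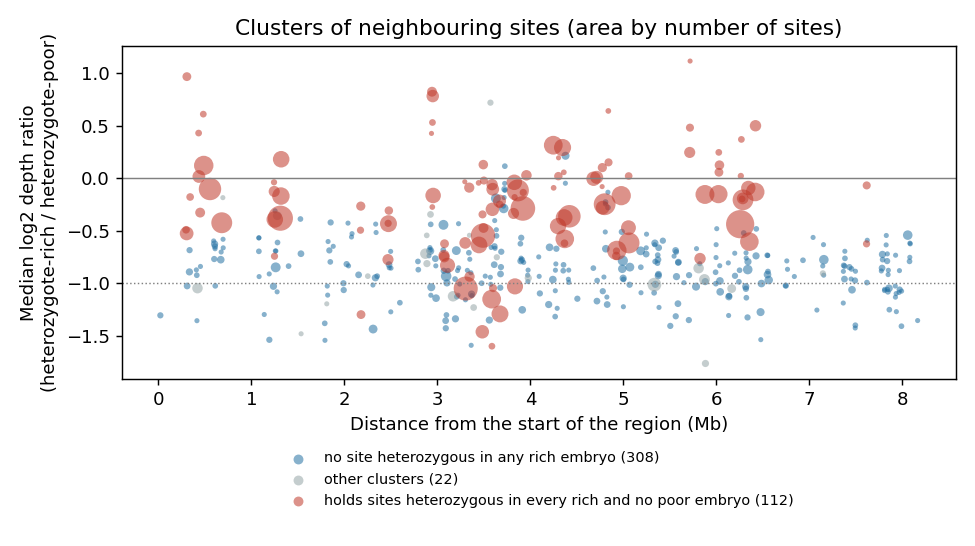
Median log2 depth ratio (heterozygote-rich over heterozygote-poor) of each of the 442 clusters of members against distance from the start of the region, with point area growing with the number of sites and dotted and solid lines at −1 and 0. The 308 clusters without a heterozygous site in any heterozygote-rich embryo have a median of −0.87 and run the whole length, and the 112 with sites of the first class have −0.19 and nearly end before 6.5 Mb.

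The reads were next divided by base. In the first class, the heterozygote-poor embryos carried the reference base at 1866 sites and the alternate base at 8, so the extra base of the heterozygote-rich embryos was nearly always the alternate one. Reads of the shared base in heterozygote-rich embryos came to 0.474 to 0.567 of the median total of heterozygote-poor embryos, with a median of 0.518. Reads of the extra base came to 0.302 to 0.369, with a median of 0.330. The shared base was thus near 0.5 of the heterozygote-poor depth and the extra base below it in all 6 heterozygote-rich embryos.

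The extra base held a median of 37.9% to 40.5% of the reads of a site in each heterozygote-rich embryo. Over sites its share had a median of 40.0%, quartiles of 27.7% and 49.8% and 5th and 95th percentiles of 19.0% and 61.6%. It was below 50% in every heterozygote-rich embryo at 957 sites and above 50% in every one at 182. By window its median was lowest at 13 to 14 Mb, with 31.9%, and highest at 14 to 15 Mb, with 46.2%. The limit of 10% for a heterozygous site bounds this share from below, and with a limit of 20% the median was 45.1%. Reads of the reference base held 51.5% to 51.8% at heterozygous sites of the other chromosomes in the same libraries, and the part of mapping to 1 reference in the lower share of the extra base was not tested.

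The 352 sites heterozygous in some heterozygote-rich and no heterozygote-poor embryos continued this distribution below the limit. Their less common base had a median share of 10.98% in the heterozygote-rich embryos, with quartiles of 7.96% and 15.8%, and it was below 20% at 311 of them. At 320 a site of the first class lay within 1 kb, and heterozygote-poor embryos carried the reference base at 351. Most of these sites thus lie near those of the first class, but clusters with sites of that class held 2791 of all 3766 members. A second base read close to the limit follows from how these sites were sorted.

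The most deeply read sites of the first class gave shares across this range. At G16712789A heterozygote-rich embryos had 3867 to 6037 reads of G, with a median of 5605.5, and 3714 to 6050 of A, with a median of 5569.5, while heterozygote-poor embryos had 9317 to 13181 reads of G and at most 1 of A. Reference shares of 49.7% to 51.0% show both bases at almost equal depth. T15343239C and C17877007T were also near equality, with reference shares of 50.6% to 53.8% and 50.02% to 59.5%.

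The extra base was scarcer at other sites, but not at all of them. C12683375T had 632 to 1060 reads of C and 228 to 366 of T in heterozygote-rich embryos, a reference share of 73.2% to 76.4%, against 1088 to 1819 reads of C in heterozygote-poor ones. C12305722T and C13252267T were alike, with reference shares of 71.2% to 75.9% and 70.0% to 74.7%. C18353729G, the deepest member at 18 to 19 Mb, had the largest reference share of these sites, 80.5% to 88.4%, with 27 to 63 reads of G in heterozygote-rich embryos and none in heterozygote-poor ones. G16245038A was 1 of the 8 sites at which heterozygote-poor embryos carried the alternate base, with 1069 to 1786 reads of A and 9 to 17 of G, and heterozygote-rich embryos had 610 to 1095 of G and 417 to 785 of A. The extra base, here G, was thus the more abundant one, at 57.5% to 61.8% of their reads, and the ratio of total depth was 1.14.

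In the second class, heterozygote-rich embryos kept 1 base above the 10% limit, the reference one at 303 sites and the alternate one at 95. Reads of the kept base were 1.05 to 1.14 times the median of the heterozygote-poor embryos for the same base, with a median of 1.08, and the heterozygote-poor embryos themselves were at 0.959 to 1.048, just below. The excess was largest at 13 to 14 Mb, where heterozygote-rich embryos had 1.10 to 1.45 and heterozygote-poor embryos 0.881 to 1.04. Reads of the other base in heterozygote-poor embryos came to 0.894 to 1.04 of the kept base, so that both bases were about equally read there. The total in heterozygote-rich embryos was 0.535 to 0.599 of that in heterozygote-poor ones. For scale, the reference base at sites of the other chromosomes that were heterozygous in all embryos was at 0.948 to 1.07 in the heterozygote-rich and 0.945 to 1.06 in the heterozygote-poor embryos. At these sites the base that both sets carried was read slightly more in the heterozygote-rich embryos. The read limit drops sites that are low in any embryo. As a median over sites, the ratio for the kept base was 1.09 with this limit, 1.09 with more than 20 reads and 1.10 with more than 30. A lower limit was not tried for this value. The class also includes 92 sites in clusters with sites of the first class, where the median ratio of total depth was higher, at 0.666. The other base was at or below 10% of the reads of heterozygote-rich embryos by the definition of the class. The choice of sites thus fixed that share but not the total, which had a ratio of 0.930 at T17876938C of this class. How much of the lower total followed from the choice was not tested.

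Past 19 Mb the kept base was at 0.986 to 1.06 of its level in heterozygote-poor embryos over 42 sites, with a median of 1.01, and the total at 0.516 to 0.553. C19618130T shows it. Heterozygote-rich embryos had 60 to 89 reads of C, with a median of 72, and none of T, and heterozygote-poor embryos had 47 to 107 of C and 48 to 116 of T. A20055372C, the last member of this class, kept the alternate base, with 201 to 632 reads of C and at most 1 of A in heterozygote-rich embryos, and 243 to 447 of C and 195 to 371 of A in the others.

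Before 19 Mb the pattern was the same at G14978045A, the deepest member at 14 to 15 Mb. Heterozygote-rich embryos had 253 to 588 reads of G and none of A, and heterozygote-poor embryos had 241 to 400 of G and 294 to 539 of A. T12334765G kept the alternate base, at 306 to 502 reads of G in heterozygote-rich and 353 to 512 in heterozygote-poor embryos, but heterozygote-rich embryos also had 13 to 22 reads of T, 2.72% to 4.97% of the total. Other sites departed from it. T17876938C, the deepest of this class, had 5681 to 8536 reads of T in heterozygote-rich embryos against 2852 to 4095 of T and 3064 to 4144 of C in the others, so that total depth hardly differed, with a ratio of 0.930. This site lies beside C17877007T, which is of the first class, and G12683972A and T13252308G, with ratios of 0.720 and 0.745, also shared a cluster with sites of the first class.

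Where no embryo was heterozygous, the reference base led in all 12 embryos at 583 sites and the alternate base at 12. Of the deepest members past 19 Mb, 3 were of this kind. G19493738A had 107 to 137 reads of G in heterozygote-rich and 180 to 349 in heterozygote-poor embryos, a depth ratio of 0.443 without overlap. G20055622A had 781 to 1437 and 1284 to 1927 reads of G, and T19784979A had 106 to 143 and 120 to 295 of T, with ratios of 0.800 and 0.640. The median depth was lower in the heterozygote-rich embryos at all 3 sites, although no base distinguishes the sets there, and the ranges of scaled reads overlapped at the last 2.

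Another kind of site separated embryos within the sets. At 427 members no heterozygote-rich embryo was heterozygous, and the heterozygote-poor embryos were either heterozygous or had 1 of the 2 bases alone. Each embryo was then scored by the base it carried, or, in heterozygote-poor embryos, by the base it carried beside the one that all 6 had in common. Read relative to embryo 12, 417 of these sites (97.7%) showed 1 of 5 patterns, which followed each other along the chromosome without mixing. The other 10 sites showed 7 further patterns.

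From 12305644 to 15627040, 118 sites set embryos 1, 3, 8, 9 and 10 apart from embryo 12. From 15630285 to 17650750, 175 sites set embryos 1, 3, 9 and 10 apart, so that embryo 8 changed sides within the interval between these stretches. Embryo 5 joined at 17703460, and 14 sites up to 17991061 had this pattern. Embryo 11 joined at 17996737, and 52 sites up to 18352530 followed. From 18474297 to 20083389, 58 sites set embryos 1, 2, 5, 9, 10 and 11 apart, so that embryos 2 and 3 had both changed sides between 18352530 and 18474297. Embryos 4, 6 and 7 were like embryo 12 over the whole length, and embryos 1, 9 and 10 were unlike it throughout.

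**Figure D5:**
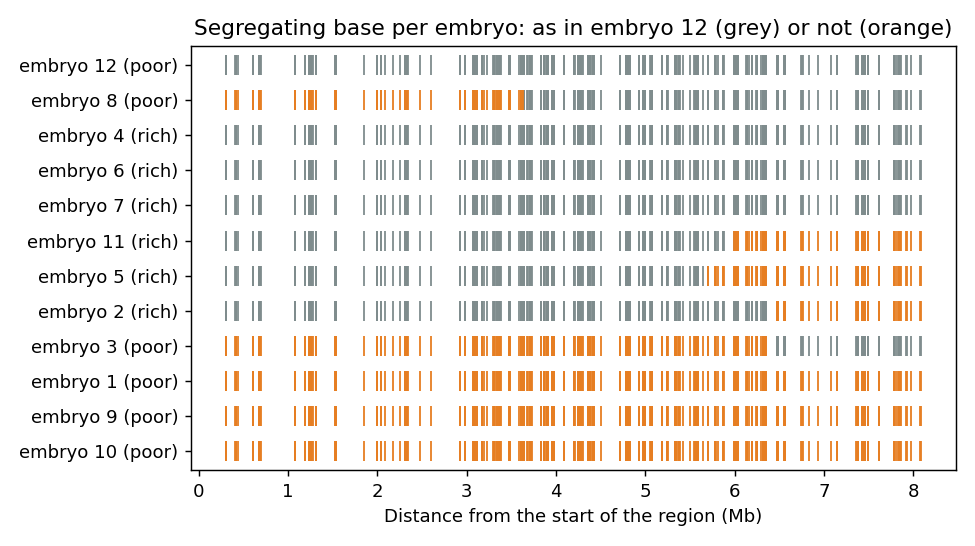
Base carried by each embryo at the 417 segregating members of the 5 main patterns, against distance from the start of the region, with grey marks where it is that of embryo 12 and orange marks where it is not. Embryo 8 changes once near 3.6 Mb, embryos 5 and 11 near 5.7 and 6 Mb, and embryos 2 and 3 between 6.35 and 6.47 Mb, while the other 7 keep 1 colour throughout.

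The last of these changes lay close to the end of heterozygosity in the heterozygote-rich embryos, whose last cluster before the gap ended at 18421348, but it concerned 1 embryo of each set, whereas heterozygosity ended in all 6. G19376010A shows the last pattern in reads. Embryos 2, 5 and 11 had 147, 120 and 112 reads of G and at most 1 of A, and embryos 4, 6 and 7 had 142, 134 and 102 of A and at most 2 of G. Among heterozygote-poor embryos, 1, 9 and 10 had 199, 266 and 249 reads of G and none of A, and 3, 8 and 12 had 174, 125 and 110 of G with 181, 108 and 108 of A. All 3 genotypes were thus present, with none of the heterozygote-rich embryos heterozygous. Depth was 6.25 to 7.78 scaled reads in heterozygote-rich and 12.7 to 16.8 in heterozygote-poor embryos, and it did not follow the base that an embryo carried.

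A test that uses no division of the embryos compared the reference share at heterozygous members with that at the same embryo's heterozygous sites on the other chromosomes, which was 51.5% to 51.8%. The median share over members was 5.06 ± 5.88 percentage points higher (SD, n = 12), and flipping the signs of the 12 differences in all ways (exact permutation test, two-sided) gave p = 0.0308, where the smallest possible p is 0.000488. It was higher in 7 of 12 embryos. The spread was that of the sets, since heterozygote-rich embryos had reference shares of 61.5% to 63.3% and heterozygote-poor embryos 50.8% to 51.9%. The differences were 9.86 to 11.5 percentage points in heterozygote-rich and −0.86 to 0.28 in heterozygote-poor embryos. The p-value was therefore set by the number of heterozygote-rich embryos, and it shows no excess common to all 12. The call was lost (p = 0.0615, exact) when any of the heterozygote-rich embryos 2, 4, 5, 6, 7 or 11 was left out, with differences of 4.47 to 5.59 percentage points over all 12 omissions. Pooled reads in place of the median over sites gave 2.83 percentage points (p = 0.0474, exact), and 1 site per 1 kb gave 3.35 (p = 0.03125, exact).

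Expression of the reference against the alternate base could be tested over all embryos only at the 35 members, in 18 clusters, that were heterozygous in all 12. None lay past 19 Mb. Reads of low mapping quality made up 6.87% at these sites, against 1.25% in the first class. They made up 1.33% at sites heterozygous in no embryo and 6.63% at those of other combinations. By edgeR's quasi-likelihood test with the embryo as a block and Benjamini-Hochberg adjustment over 20294 such sites of the genome, 24 of the 35 differed, in 12 clusters, against 34.2% of all sites tested. The reference base was higher at 9, against 23.4%, and the alternate base at 15, against 10.7%. The direction was the same in all 12 embryos at 10 of the 24, so a call does not mean that every embryo differed. With TMM scaling the split over the genome moved from 4755 and 2178 to 3355 and 3398 while members split 8 and 16, as the median log2 ratio of all sites moved from 0.07 to −0.02. The sites share reads within clusters and are few, so their count says little of the region.

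Of the 35 sites, 9 lay within 297 bp at 17333299 to 17333596, and all 9 differed between the bases. A17333312G had 30 to 70 reads of A and 10 to 16 of G in heterozygote-rich and 79 to 134 of A and 11 to 31 of G in heterozygote-poor embryos, with a log2 ratio of 2.22 (SE 0.10, adjusted p = 4.02e-13 by edgeR) and A higher in 12 of 12 embryos. Neighbours differed in the other direction, as at 17333314 with a log2 ratio of −0.77 and at 17333587 with −1.95. The adjacent positions 17333595 and 17333596 had median reference shares of 37.2% and 73.9% in heterozygote-rich embryos. In heterozygote-poor embryos they had 45.6% and 78.3%. These shares are neither equal nor complementary, while those at 17333587 and 17333588 were nearly equal. Whether more than 2 sequences were counted here was not tested. Reads of low mapping quality made up 1.44% in the cluster of 26 members that holds these sites, and their part was not tested. The cluster had a depth ratio of 0.495. All heterozygote-poor embryos were above all heterozygote-rich ones at each of its 26 members.

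Beyond this cluster, 2 sites differed in the same direction in all 12 embryos under the limit of 1 site per 100 kb. G14871163A had a log2 ratio of −1.15 (SE 0.16, adjusted p = 1.01e-05 by edgeR). Its reads were 9 to 20 of G and 15 to 27 of A in heterozygote-rich and 11 to 19 of G and 33 to 52 of A in heterozygote-poor embryos, and 10.1% of its reads were set aside for low mapping quality. T13320152C had −0.53 (SE 0.09, adjusted p = 9.56e-05 by edgeR), with 22 to 38 reads of T and 32 to 53 of C in heterozygote-rich and 19 to 35 and 22 to 51 in heterozygote-poor embryos. At 9 of the 35 sites the reference shares of the sets did not overlap. The same share over all sites tested in the genome was not computed, so this count has no background beside it. G14871163A was among these sites. Its reference share was 27.3% to 47.6% in heterozygote-rich and 19.7% to 26.8% in heterozygote-poor embryos, so its log2 ratio averages over unlike sets. At 13252596, for example, chosen after its values were seen, heterozygote-rich embryos had reference shares of 84.8% to 88.5% and heterozygote-poor ones 46.3% to 52.0%.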

How the data were processed

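RNA was sequenced from 12 whole F1 embryos, the offspring of an LITC and a high-spine fish, with 200 ng of RNA per library and 12 PCR cycles. Per the labels and the paper, the authors trimmed the reads with Trim Galore and Cutadapt 2.4, aligned them to *gasAcu1-4* with 2 passes of STAR and counted alleles with GATK 4.1.4.1. The deposited values are raw counts of reads with the reference and the alternate base at each site, without normalization. Reads of low mapping or base quality stand in columns of their own and were not counted. Mapping to a single reference can favour its base.

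Rows were joined by position and bases. Members, embryo sets and lists were chosen with earlier results of these data known. Named sites were the deepest of each class, window and end, and the strongest imbalanced sites, at most 1 per 100 kb. Sites heterozygous in all 12 embryos were tested with edgeR 4.0.16 (R 4.3.3), with adjusted p below 0.05 called and 1 library size per embryo. The embryo is the block because both alleles come from 1 RNA sample. In simulated data for this test, 191 of 200 sites changed by a log2 ratio of 1 were recovered among 20294, with 7 false calls. The simulation drew each count independently, with a fixed spread and no preference for the reference base. Its false calls therefore do not measure those in the real counts. DESeq2 1.42.0, an exact binomial test, other limits and scalings, and leaving out each embryo were alternatives. Nothing shows that the embryos came from separate clutches, so p-values measure the spread between these embryos. Python 3.11.15, numpy 2.4.6, pandas 2.3.3 and scipy 1.17.1 were used. A member with 13 reads gives an embryo's allele share only coarsely. No sample was left out. Gene names and sequences of the region were not used here.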

Additional observations from a re-analysis of the deposited data

How the results depend on the processing

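With minor shares above 5% and 20%, or at least 3 reads of each base, the difference in heterozygous share (38.6 percentage points) became 42.6, 30.6 and 41.9, its change past 19 Mb (−81.0) −84.3, −73.4 and −84.0, and the extra-base share (a median of 40.0% over sites) 37.5%, 45.1% and 37.5%. With more than 20 reads the first 2 were 41.2 and −82.8. With more than 30 reads 2194 members were left, 1188 of the first class and 198 of the second, with 44.2, −73.4 and 38.5%. With 1 site per 1 kb, 790 members were left, 233 of the first class and 165 of the second, the difference reversed to −3.80, the change past 19 Mb was −53.9, the log2 depth ratio −0.38 in place of −0.29 and the extra-base share 43.6%. A boundary 500 kb further on gave a change of −65.6. The log2 depth ratio was −0.34 with DESeq2 size factors, −0.34 with TMM factors, −0.51 as a median over sites and −0.35 without the 5 kb around the deepest site. Past 19 Mb it was −0.81 without a read minimum and −0.82 over sites of any file, in place of −0.68. These last 2 settings, the 5 kb omission and, under every setting, the alternatives for the class counts and the single-base values were chosen after seeing the data.

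Without the replicate block, edgeR called 20 of the 35 members in place of 24, and 4233 sites in all in place of 6933. Members called were 63 of 105 with both bases read and no read minimum, and 15 of 24 with minor shares above 20%, where other sites are tested.

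Leaving out each embryo in turn gave 38.5 to 38.7 for the difference in heterozygous share, −83.3 to −78.6 for its change past 19 Mb, −0.31 to −0.27 for the log2 depth ratio and −0.72 to −0.64 past 19 Mb, 4.47 to 5.59 for the reference share, and 22 to 25 members called by edgeR. Sites of the first class were 1874 to 1906 and of the second 398 to 468. The 3 ratios of single bases stayed at 0.501 to 0.533, 39.4% to 40.2% and 1.06 to 1.11. Dividing the embryos at 4000 or 5000 sites or below 12 Mb gave the same sets, so these alternatives could not change any value. Allele shares of single sites at 13 reads are limited by depth.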
